A study of Homo sapiens with 4 samples.

Results

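The 9 genes NR0B1, CAV1, GSTM4, FCGRT, STEAP1, NKX2-2, CCK, PRKCB and VRK1 were taken by name from the known targets of the EWSR1-FLI1 fusion in Ewing sarcoma, out of 20033 protein-coding genes of GENCODE 44. Each locus was the gene with 100 kb on either side, and every peak of FLI1 chromatin immunoprecipitation sequencing (ChIP-seq) in it was taken, which gave 38 of 30819 control peaks and 51 of 39654 IFN-γ peaks. The cells of both groups were HK1, a nasopharyngeal carcinoma cell line, made to overexpress FLI1 with a Flag tag. One group received PBS, the control, and the other IFN-γ, for 24 h. The antibody recognised the Flag tag, so only the overexpressed protein was measured, which is FLI1 and not the fusion. There was 1 library per condition, so the treatment was not tested, and differences between the libraries are given as measured. Peak lists carry no expression values, so neither the cell type nor the expression of the 9 genes could be checked.

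FLI1 belongs to the ETS family of transcription factors, whose DNA-binding domain reads a GGAA core. In Ewing sarcoma a translocation joins the amino-terminal part of EWSR1 to the DNA-binding part of FLI1, and the fusion is known to bind long tandem repeats of GGAA and to use them as enhancers. Several of the 9 genes are known as targets through such repeats, so a repeat at their loci is background and not a result of these data.

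Repeats were read from the reference genome, GRCh38, and the number of units carried by HK1 cells can differ from it. A run was at least 4 contiguous GGAA units on either strand, and runs of the same strand at most 100 bp apart were joined into a tract. The joining was chosen after seeing the data, and the planned counts by single run are given in the last section. All 9 loci held a tract with a run of at least 9 units, against 25.7% of all protein-coding genes, and 5 of the 9 genes had one within 3 kb of a transcription start site (TSS), against 1.29%. The tracts below are those nearest to the summit of the strongest repeat peak of each locus in the IFN-γ library, with the CAV1 promoter repeat and a PRKCB tract that had no peak for contrast. They are shown because they carry the difference between the loci: the number of units, their interruptions and the distance from the gene. Each is written 5′ to 3′ on the strand that reads GGAA, distances are from the TSS of the MANE Select transcript of the named gene, and capitals mark GGAA units.
NR0B1, chrX:30310758-30310859, minus strand, 1.42 kb upstream: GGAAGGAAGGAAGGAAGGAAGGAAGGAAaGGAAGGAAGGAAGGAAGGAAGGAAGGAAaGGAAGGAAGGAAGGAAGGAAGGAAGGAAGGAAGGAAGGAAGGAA
CAV1, chr7:116523067-116523236, plus strand, 1.89 kb upstream: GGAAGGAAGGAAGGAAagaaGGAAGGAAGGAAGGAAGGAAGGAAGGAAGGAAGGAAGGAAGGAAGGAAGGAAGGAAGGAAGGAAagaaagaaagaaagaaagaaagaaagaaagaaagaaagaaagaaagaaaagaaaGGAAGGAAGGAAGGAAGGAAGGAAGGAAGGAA
CAV1, chr7:116562942-116562989, plus strand, 37.9 kb downstream: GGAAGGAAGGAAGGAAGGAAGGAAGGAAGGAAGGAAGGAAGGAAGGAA
FCGRT, chr19:49511507-49511618, plus strand, 1.1 kb upstream: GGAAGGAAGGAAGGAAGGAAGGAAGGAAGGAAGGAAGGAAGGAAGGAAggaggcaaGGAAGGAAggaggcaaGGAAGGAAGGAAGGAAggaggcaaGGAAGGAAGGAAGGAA
GSTM4, chr1:109654236-109654308, plus strand, 1.83 kb upstream: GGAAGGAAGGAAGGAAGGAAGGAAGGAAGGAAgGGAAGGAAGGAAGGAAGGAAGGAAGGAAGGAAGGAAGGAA
STEAP1, chr7:90208353-90208481, plus strand, 53.9 kb downstream: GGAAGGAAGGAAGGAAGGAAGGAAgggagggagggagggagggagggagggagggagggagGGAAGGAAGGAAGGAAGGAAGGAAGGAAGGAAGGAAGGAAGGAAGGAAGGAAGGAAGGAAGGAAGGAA
NKX2-2, chr20:21576284-21576363, minus strand, 62.3 kb upstream: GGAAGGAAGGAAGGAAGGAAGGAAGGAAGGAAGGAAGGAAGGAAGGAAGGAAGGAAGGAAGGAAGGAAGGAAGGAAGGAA
CCK, chr3:42266527-42266570, minus strand, 0.363 kb upstream: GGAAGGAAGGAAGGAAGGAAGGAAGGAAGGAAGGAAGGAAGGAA
PRKCB, chr16:24094811-24094854, plus strand, 259 kb downstream in intron 7: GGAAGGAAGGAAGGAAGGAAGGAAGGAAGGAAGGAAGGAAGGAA
PRKCB, chr16:23749072-23749135, minus strand, 86.9 kb upstream, under no peak: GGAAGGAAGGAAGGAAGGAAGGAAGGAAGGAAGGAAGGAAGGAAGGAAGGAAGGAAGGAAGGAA
VRK1, chr14:96769144-96769187, minus strand, 28.2 kb upstream: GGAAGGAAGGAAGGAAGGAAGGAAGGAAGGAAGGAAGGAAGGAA

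None of these tracts overlapped an exon of the MANE Select transcript of the named gene. The NR0B1 tract held 25 units in 3 runs separated by single bases, with a longest run of 11 units, whereas the NKX2-2 tract was 1 uninterrupted run of 20 units. The CAV1 promoter tract held 28 units, of which 16 were contiguous, and the STEAP1 tract held a run of 17. The tracts printed for CCK, PRKCB intron 7 and VRK1 were the same 44 letters, 11 units each, at 3 different distances from a TSS.

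Of the 9 genes, 6 had a peak at a promoter in control cells and the same 6 in IFN-γ cells: NR0B1, CAV1, GSTM4, FCGRT, CCK and VRK1. A promoter was the 3 kb on either side of the TSS of any transcript. The share of all protein-coding genes with a promoter peak was 61.9% in control cells and 59.7% in IFN-γ cells, so 6 of 9 was near the background. Counting the gene body as well gave 6 and 7 genes, against 67.6% and 67.9%. All 9 genes had a peak in the gene or within 100 kb in each library, as had 91.3% and 93.7% of protein-coding genes. The 9 loci were not rich in peaks: they held 1 to 12 control peaks and 3 to 15 IFN-γ peaks, with a median of 3 in each library, and the medians over all protein-coding genes were 5 and 6. The peaks nearest to the limit of the loci were a control peak of fold enrichment 3.89 that lay 98.2 kb from PRKCB and an IFN-γ peak of 5.54 that lay 98.4 kb from CAV1, and just outside lay a control peak of 4.1 at 107 kb from CAV1 and an IFN-γ peak of 5.13 at 102 kb from STEAP1.

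Peaks on repeats were more frequent at the 9 loci than over the genome. A peak was on a repeat if a run overlapped the 100 bp on either side of its summit. Of the peaks at the 9 loci, 11 of 38 in control cells and 16 of 51 in IFN-γ cells were on a repeat, against 7.15% and 11.1% of all peaks. A peak on a repeat was present at 8 of the 9 loci in control cells and at all 9 in IFN-γ cells, against 19.2% and 33% of protein-coding genes. The exception was VRK1 in the control library. For 5 genes, NR0B1, CAV1, GSTM4, FCGRT and CCK, the repeat peak was at a promoter in both libraries, against 1.04% and 1.88% of protein-coding genes. By p-value, the strongest peak of the locus was on a repeat at 3 loci in control cells and at 7 in IFN-γ cells. These excesses were not tested, since the genes are known for their repeats and were chosen with earlier results of these data known. The nearest TSS was that of the member itself for 10 of 38 control peaks and 12 of 51 IFN-γ peaks.

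**Figure D1:**
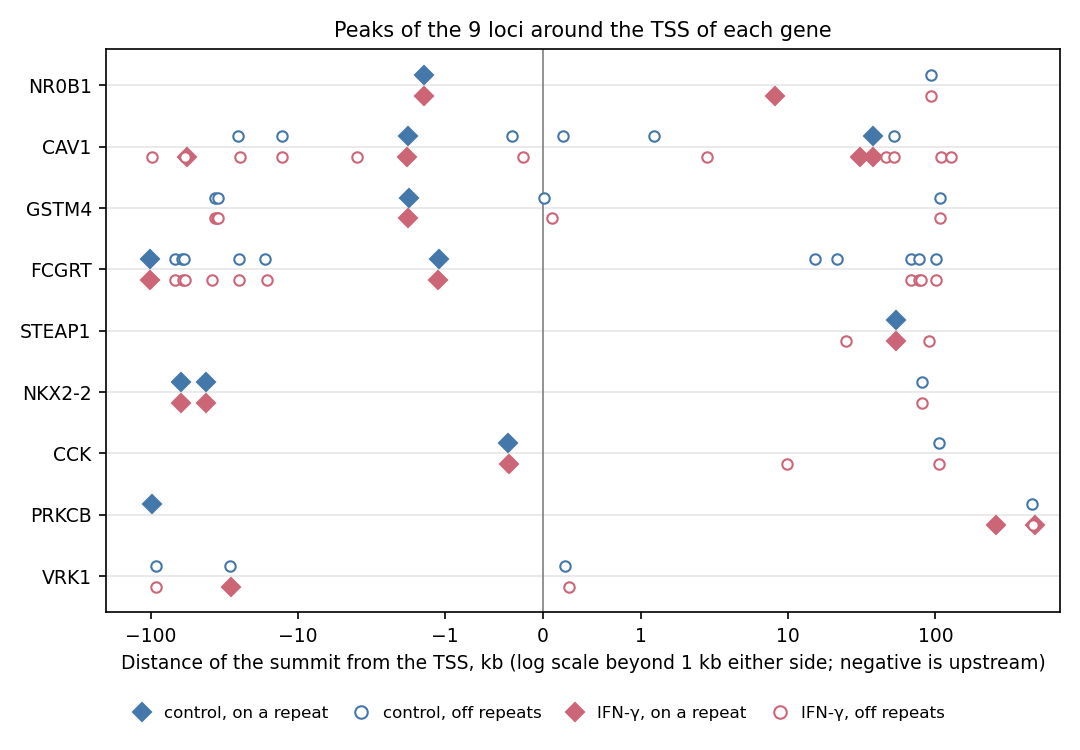
Each symbol is a peak of 1 of the 9 loci, placed by the distance of its summit from the TSS of the MANE Select transcript (horizontal axis, kb, on a log scale beyond 1 kb on either side). Blue is the control library and red the IFN-γ library, and filled diamonds are peaks on an ETS-core repeat (11 control, 16 IFN-γ). At NR0B1, CAV1, GSTM4, FCGRT and CCK a filled diamond lies within 2 kb upstream of the TSS in both libraries.

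NR0B1 (ENSG00000169297, chrX:30304206-30309390, minus strand) encodes an orphan nuclear receptor that represses transcription and is required by Ewing sarcoma cells in culture. Its promoter repeat showed a fold enrichment over the local background of 16.2 in control cells and 24.2 in IFN-γ cells. The fragments piled up at the summit, solved from the fold enrichment and the p-value, numbered 34 and 68. Fragment numbers here and at the genes below are not scaled to depth. By the lowest backgrounds the IFN-γ library was 1.46 times as deep as the control library. The peak stood in the top 12.9% of the control list and the top 6.27% of the IFN-γ list by p-value. No other repeat peak of the 9 loci was as strong in the control library. Both summits fell inside the tract, and 26 and 27 GGAA cores lay within 100 bp of them. A weaker peak near a run of 4 units 8.29 kb downstream of the TSS was found in the IFN-γ library alone, at 3.45, and the peak itself did not cover the run. The remaining peak of the locus was at the TSS of MAGEB2 and off repeats, with 11.2 and 12.1.

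NKX2-2 (ENSG00000125820, chr20:21511017-21514064, minus strand) encodes a homeobox factor of neural and pancreatic development, used as a diagnostic marker of Ewing sarcoma. No peak was found at its promoter or in the gene in either library. Both of its tracts lay upstream and were under a peak in both libraries, and for both the nearest TSS was that of LINC01727. The run of 20 units, the longest of the 9 loci, showed a fold enrichment of 7.24 in control cells and 11 in IFN-γ cells, with 14 and 27 fragments. The run of 9 units 41.8 kb upstream had 5.23 and 5.52, with 13 fragments in each. The longest run was therefore not the strongest peak: NR0B1 and CCK, with longest runs at the summit of 11 units, had 24.2 and 17 in the IFN-γ library.

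CAV1 (ENSG00000105974, chr7:116524994-116561179, plus strand) encodes caveolin-1, the scaffold protein of caveolae. Its promoter repeat showed a fold enrichment of 11.8 in control cells and 17.4 in IFN-γ cells, with 32 and 73 fragments. The run of 12 units 37.9 kb from the TSS, past the end of the gene, had 4.91 and 25.1, with 22 and 92 fragments. Its local background was 3.69 in control cells and 2.71 in IFN-γ cells. In the control library the promoter repeat was the stronger of the pair, and in the IFN-γ library the downstream one was, in the top 3.85% of its list. The nearest TSS to the downstream tract was that of COMETT. Repeat peaks over 5 units 56.3 kb upstream and over runs of 6 and 4 units in intron 2 appeared in the IFN-γ list alone, at 6.99 and 8.51. Off repeats, a peak just upstream of the TSS had 4.62 and 3.64, a pair of promoter peaks found in the control list alone had 2.99 and 7.02, one found in the IFN-γ list alone had 4, and a peak 12.8 kb upstream, towards CAV2, had 9.97 and 9.69.

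FCGRT (ENSG00000104870, chr19:49506816-49526428, plus strand) encodes the heavy chain of the neonatal Fc receptor, which recycles immunoglobulin G and albumin. The repeat 1.1 kb upstream of the MANE TSS lay inside the annotated gene, between the starts of longer transcripts and the MANE start. It showed a fold enrichment of 6.25 in control cells and 21.7 in IFN-γ cells, with 22 and 66 fragments over local backgrounds of 2.68 and 2.09. A tract with 14 units 101 kb from the MANE TSS, nearest to the TSS of KASH5, had 6.81 and 13.8. FCGRT lies among many genes, and the other 10 peaks of the locus in each library were off repeats and nearest to other genes. Of these the peak at the start of PIH1D1 had the highest fold enrichment of the 9 loci in each library, 21.2 and 28.4.

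STEAP1 (ENSG00000164647, chr7:90154456-90164829, plus strand) encodes a membrane protein of the STEAP metalloreductase family that is studied as a target on tumour cells. Its single control peak was the one over the tract 53.9 kb downstream, with a fold enrichment of 7.79 and 15 fragments. The same tract in the IFN-γ library reached 14.8 on 40 fragments. The nearest TSS was that of STEAP2-AS1, so the peak was in the locus but not next to STEAP1. The other 2 IFN-γ peaks were off repeats, at 6.72 nearest to STEAP2 and at 3.61 at the start of CFAP69.

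GSTM4 (ENSG00000168765, chr1:109656099-109665496, plus strand) encodes a mu-class glutathione transferase. The tract 1.83 kb upstream showed a fold enrichment of 7.63 in control cells and 11.9 in IFN-γ cells, with 17 and 31 fragments. A separate peak off repeats lay on the TSS, with 11.2 and 8.28 and with 22 and 20 fragments. The TSS peak was thus the stronger of the 2 promoter peaks in the control library and the repeat peak the stronger in the IFN-γ library. GSTM4 has close paralogs in the same cluster, and how reads shared between copies were placed is not known here.

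CCK (ENSG00000187094, chr3:42257825-42266185, minus strand) encodes the precursor of the peptide hormone cholecystokinin. A pair of tracts lay 0.363 kb and 0.599 kb upstream, with longest runs of 11 and 13 units, and 1 peak covered both. It showed a fold enrichment of 8.27 in control cells and 17 in IFN-γ cells, with 16 and 45 fragments, and the summit fell on the nearer tract in both. An IFN-γ peak off repeats 9.84 kb from the TSS, just past the 3′ end of the gene, had 6.25 and no control partner.

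PRKCB (ENSG00000166501, chr16:23835983-24220611, plus strand) encodes protein kinase C beta. It is the longest of the 9 genes and had no promoter peak. The locus held 7 tracts with a run of at least 9 units, of which 1 was under a control peak, 2 were under IFN-γ peaks and 4 were under neither. The control peak was over 16 units 98.4 kb upstream, with a fold enrichment of 3.89 on 7 fragments, and no IFN-γ peak covered it. The IFN-γ peaks were over the 11 units in intron 7, with 12.6 on 31 fragments, and over 9 units 477 kb from the TSS, beyond the end of the gene, with 9.07 on 22 fragments. The tracts without a peak had longest runs of 12, 13, 15 and 16 units, as long as those bound at other loci. At the other 8 loci together, 11 of 12 tracts with at least 9 units were under a control peak and all 12 under an IFN-γ peak. That count leaves out the locus with most of the tracts lacking a peak. Over all 9 loci 12 and 14 of 19 were under a peak, against 42.6% and 71.2% of tracts of that length in the genome.

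VRK1 (ENSG00000100749, chr14:96797304-96954846, plus strand) encodes a nuclear serine-threonine kinase of the cell cycle. Its promoter peak lay at the TSS and off repeats, with a fold enrichment of 11.7 in control cells and 9.07 in IFN-γ cells, on 23 and 22 fragments. The tract 28.2 kb upstream was under an IFN-γ peak of 9.46 on 23 fragments. The control peak there, 5.35 on 10 fragments, covered only a pair of 4-unit runs next to it, and its summit was 233 bp from them. The paired peaks thus overlapped but had their summits on different sequence.

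**Figure D2:**
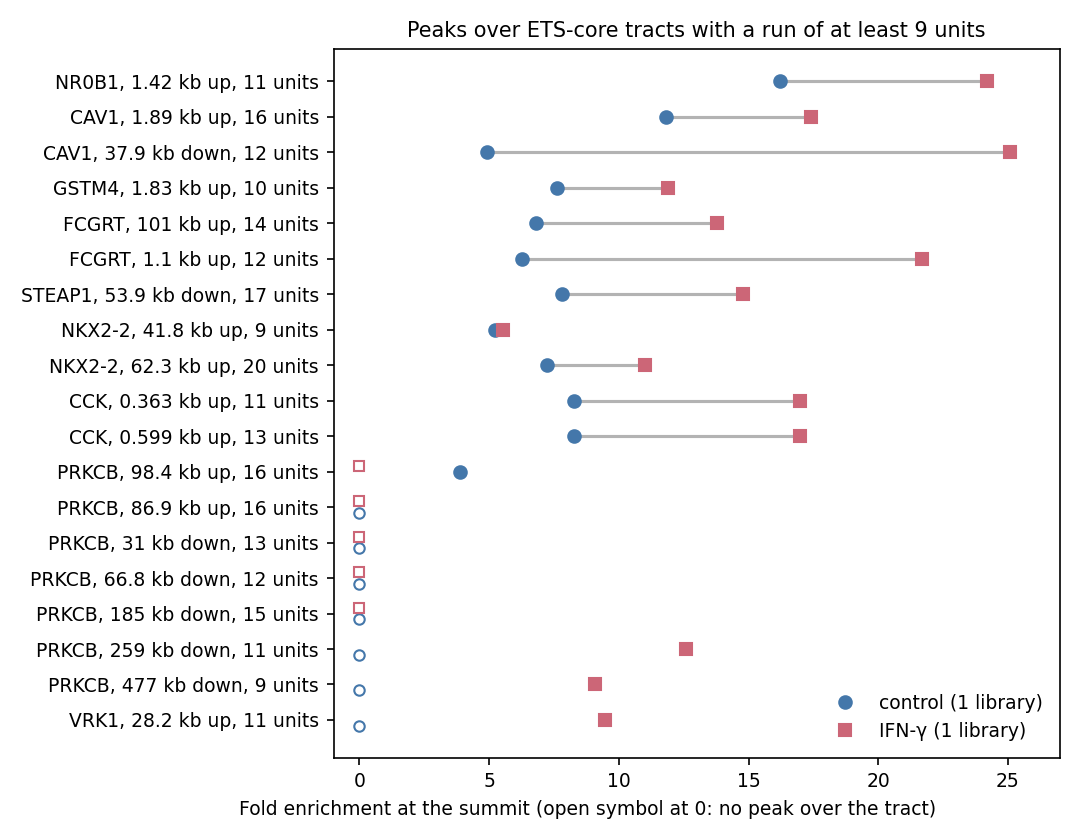
Fold enrichment at the summit (horizontal axis) of the peak over each of the 19 tracts of the 9 loci with a run of at least 9 units, labelled by gene, distance from the TSS and length of the longest run. Blue circles are the control library, red squares the IFN-γ library, lines join the values of 1 tract, and open symbols at 0 mark tracts with no peak. The 11 tracts with a peak in both libraries, of which the CCK pair share 1 peak, all lie further right in the IFN-γ library, from 5.23 against 5.52 at NKX2-2 to 4.91 against 25.1 at CAV1, and 4 PRKCB tracts have no peak. Fold enrichments are not scaled to the depth of the libraries. At that NKX2-2 tract the ratio of depth-scaled summit pileups, IFN-γ over control, was 0.687 (0.293 to 1.61).

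The number of repeats under peaks was then set beside the genome. Over all tracts of the 9 loci, 13 of 34 were under a control peak and 18 of 34 under an IFN-γ peak, against 19.3% and 38.9% of the 13082 tracts of the genome. With a run of at least 6 units the counts were 12 and 15 of 21, against 33.4% and 59.2%. With at least 9 units they were 12 and 14 of 19, against 42.6% and 71.2%. In the IFN-γ library the 14 of 19 was near the share of tracts of that length elsewhere. At promoters of protein-coding genes, 51% and 78% of the tracts with at least 9 units were under a peak, and all 6 of those at the promoters of the 9 genes were, in both libraries. These 6 were the tracts of NR0B1, CAV1, GSTM4 and FCGRT and the pair at CCK, which shared 1 peak.

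Longer runs were more often under a peak over the genome. The share rose from 8.49% of tracts with a longest run of 4 or 5 units to 54.2% of those with 16 or more in the control library, and from 23.3% to 82% in the IFN-γ library. At the 9 loci 1 and 3 of 13 tracts with 4 or 5 units were under a peak, and 0 and 1 of 2 with 6 to 8 units. With 9 to 11 units it was 4 and 7 of 7, against 31.8% and 61.3% of the genome. With 12 to 15 units it was 4 and 4 of 7, against 47.8% and 75.9%, and with 16 or more 4 and 3 of 5. In the IFN-γ library the counts at 12 or more units thus lay below the genome shares. The tracts of at least 12 units that lacked a peak were all at PRKCB. The fold enrichment of repeat peaks over the genome also grew with the length of the run, from a median of 5.84 to 7.3 in the control library and from 6.52 to 10.7 in the IFN-γ library.

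**Figure D3:**
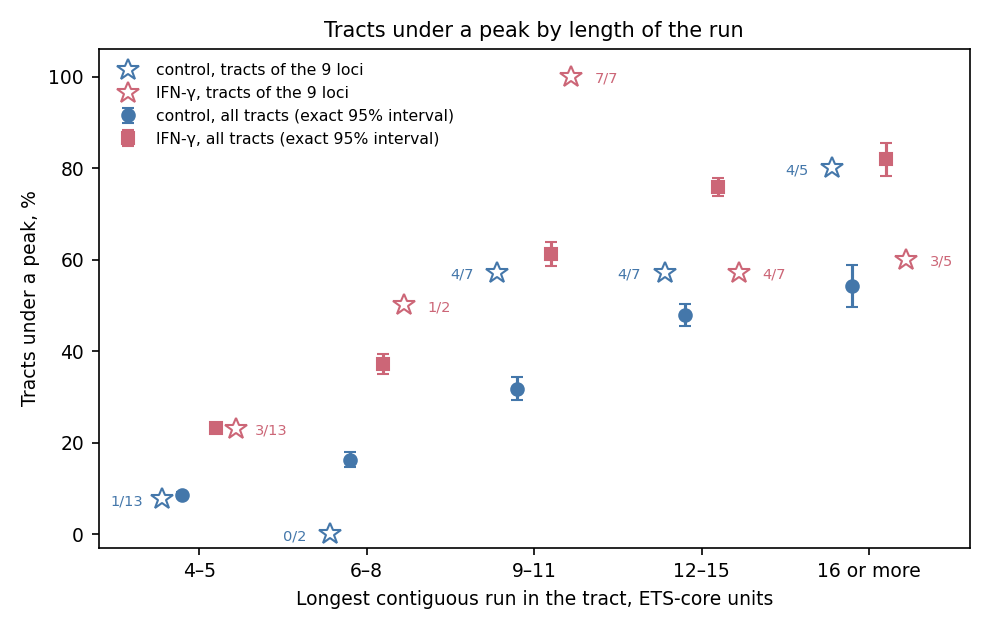
Share of ETS-core tracts under a peak (vertical axis, percent) by the length of their longest contiguous run in units (horizontal axis), for all tracts of the genome (filled symbols, with exact 95% intervals) and for the tracts of the 9 loci (stars, with the count under a peak and the total). The genome share climbs from 8.49% to 54.2% in the control library (blue) and from 23.3% to 82% in the IFN-γ library (red). All 7 tracts of the 9 loci with 9 to 11 units were under an IFN-γ peak, against 61.3% of the genome. With 12 to 15 units 4 of 7 were, against 75.9%, and with 16 or more 3 of 5, against 82%.

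The strength of peaks was then described on and off repeats. At the 9 loci, repeat peaks had a median fold enrichment of 7.24 in control cells and 12.3 in IFN-γ cells, and the other peaks 6.81 and 6.25. Over the genome the medians were 6.41 and 8.05 on repeats and 6.83 and 6.34 off them. The loci and the genome were not matched here for run length. For runs of 9 to 11 units the genome medians were 6.36 and 8.52, and for 12 to 15 units 6.81 and 9.86. The ETS octamer preferred by FLI1, CCGGAAGT or CAGGAAGT on either strand within 100 bp of the summit, was found in 6 of 27 off-repeat peaks of the control library and 6 of 35 of the IFN-γ library, against 13.7% and 15.1% of all off-repeat peaks. None of the 11 control and 16 IFN-γ repeat peaks of the loci held it, and 1.09% and 0.752% of all repeat peaks did. The AP-1 sequence, TGACTCA or TGAGTCA, was found in 3 and 5 off-repeat peaks, against 15% and 19.1%. No repeat peak of the loci held it, and 2.31% and 1.57% of all repeat peaks did.

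Most control peaks of the loci had an IFN-γ partner. Of the 38 control peaks 32 had a partner (84.2%, exact Clopper-Pearson 95% interval 68.7% to 94%), and 33 of 51 IFN-γ peaks overlapped a control peak (64.7%, 50.1% to 77.6%). The shares over all peaks were 77.5% and 61%, inside both intervals. Among repeat peaks of the loci it was 10 of 11 and 11 of 16, and among all repeat peaks 95.8% and 49.4%. The 5 IFN-γ repeat peaks without a partner were those at NR0B1, CAV1 and PRKCB described above. Scaled to the depth of the control library, their summits amounted to between 7.55 fragments at NR0B1 and 21.3 at PRKCB intron 7, and the weakest control peak anywhere rested on 6 fragments. The peak of PRKCB found in the control library alone amounted to 10.2 fragments at the IFN-γ depth, where the weakest peak rested on 7. Absence from a list means only that a site did not pass the calling cutoff there.

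The overlaps gave 32 pairs, each joined by the nearest summits. Their summit pileups were compared after dividing by the relative depth of the libraries, 1.46, taken from their lowest backgrounds. The interval of each ratio is exact and covers counting error only. The 11 pairs on repeats, which include VRK1 through its IFN-γ summit alone, had a median IFN-γ to control ratio of 1.58, and 10 of them were above 1. The lowest was 0.687 (0.293 to 1.61) at the 9-unit run of NKX2-2 and the highest 2.87 (1.79 to 4.8) at the downstream tract of CAV1. The interval was above 1 at 4 pairs, which were also FCGRT at 2.06 (1.26 to 3.51), CCK at 1.93 (1.07 to 3.66) and the CAV1 promoter at 1.57 (1.02 to 2.45). It held 1 at NR0B1, with 1.37 (0.897 to 2.14), at GSTM4, with 1.25 (0.672 to 2.41), and at STEAP1, with 1.83 (0.99 to 3.57), and at no repeat pair was it below 1.

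The 21 pairs off repeats had a median ratio of 0.944, 10 of them above 1, with 2 intervals above 1 and 0 below. The direction of this median turned with the scaling. With the relative depth set to 1.3, from promoter peaks shared by the libraries, it was 1.06 with 14 pairs above 1. This smaller depth raises every ratio by the same factor. The repeat median could therefore only rise, to 1.77, and the change of depth is no check of it. The 3 off-repeat pairs at promoters of the 9 genes were at CAV1 with 0.944 (0.474 to 1.92), GSTM4 with 0.624 (0.323 to 1.2) and VRK1 with 0.657 (0.349 to 1.23), and every interval held 1. At GSTM4 the repeat and the TSS peak, less than 2 kb apart, had ratios of 1.25 and 0.624, with intervals that overlapped.

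The medians were near those of the genome, where the 2243 shared repeat pairs had 1.55 and the 21652 pairs off repeats 0.974. Off-repeat promoter pairs of the genome had a median of 0.883 and a lower quartile of 0.687, and GSTM4 and VRK1 lay below that quartile. The interval was above 1 at 30.7% of all repeat pairs and below 1 at 0.223%, at 10.6% and 8.14% of pairs off repeats, and at 12.5% and 7.39% of all pairs. At the 9 loci it was above 1 at 4 of 11 repeat pairs and 2 of 21 other pairs. With the relative depth of 1.3 the repeat count was 7 of 11, against 42.2% of all repeat pairs, and the other count stayed at 2 of 21, against 15.2%.

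**Figure D4:**
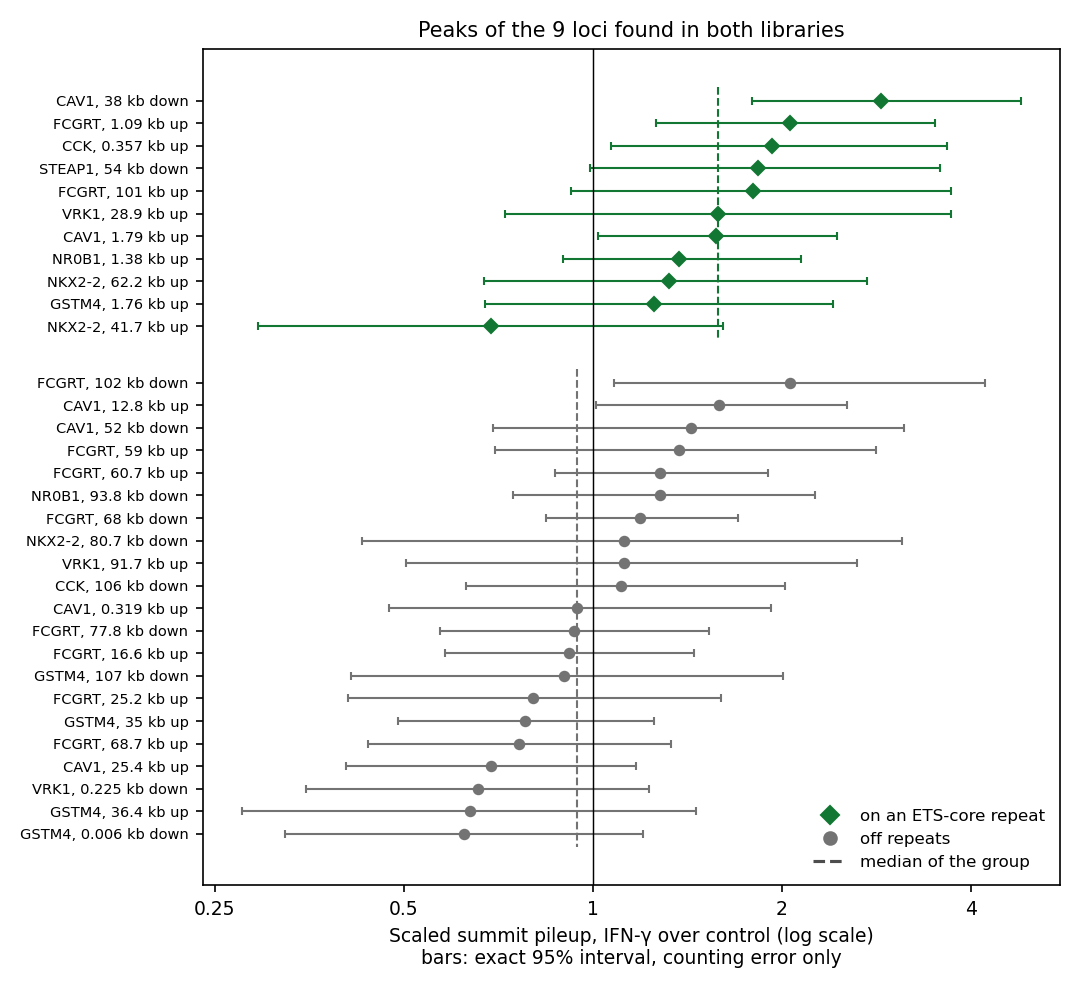
Ratio of the depth-scaled summit pileup of the IFN-γ library to that of the control library (horizontal axis, log scale) for the 32 pairs of overlapping peaks at the 9 loci, labelled by gene and distance of the control summit from the TSS. Bars are exact 95% intervals for counting error, green diamonds are the 11 pairs on a repeat, grey circles the 21 other pairs, and dashed lines their medians of 1.58 and 0.944. Of the green diamonds 10 lie to the right of 1 and the bars of 4 clear it.

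A second list of Ewing sarcoma targets, 20 activated and 6 repressed genes, was read in the same way. It too was chosen with earlier results of these data known, so it is not an independent check, and its counts were not tested. Of the 20 activated genes, 12 had a promoter peak in control cells and 15 in IFN-γ cells, against 61.9% and 59.7% of protein-coding genes. Of the same 20, 7 and 11 had a peak on a repeat in the gene or within 100 kb, against 19.2% and 33%. Of the 6 repressed genes, 4 and 5 had a promoter peak and 1 and 2 a repeat peak, the latter near the same background. The 11 activated genes with an IFN-γ repeat peak were the ones whose locus held a run of at least 9 units in the reference genome. Such a run was present at 25.7% of all protein-coding loci, so the repeat counts were not matched for repeat content. The 5 genes whose repeat peaks ranked highest in the IFN-γ library were led by PPP1R1A, an inhibitor of protein phosphatase 1, with fold enrichments of 14 and 26 over a run of 14 units 36.3 kb from the TSS. CCND1, which encodes cyclin D1, had 15.4 and 24.8 over 15 units 19 kb away in the control library. EZH2, the histone methyltransferase of Polycomb complex 2, had 7.31 and 15.2 over 13 units. EGR2, an early growth response factor, had 4.87 and 14.9 over 14 units. TGFBR2, a TGF-β receptor that the fusion is known to repress, had 5.5 and 15 over 12 units 127 kb from the TSS.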

How the data were processed

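Flag ChIP-seq of HK1 cells overexpressing Flag-FLI1 was analysed in 2 libraries, 1 per treatment (PBS, or IFN-γ over 24 h). Input libraries are not analysed here. According to the methods and the submitters' processing notes, the authors used Cutadapt 1.18 for trimming, Bowtie2 2.3.4.1 for alignment to GRCh38, Picard for duplicates and MACS 2.1.2 for peaks, called in each library. Use of the input in calling is not given in the sources used here. The deposited narrowPeak lists give, per peak, the fold enrichment at the summit (a ratio) and −log10 of the p-value and q-value. The authors' display score in the same lists was not used. Reads from long repeats can map to several places, and how such reads were treated is not given in the sources used here.

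The 9 genes and the other lists were chosen with earlier results of these data known. Whole summit pileups and backgrounds were solved from the deposited fold and −log10 p with a relative error of at most 6.21e-06. Depth is known only through these: the median summit rested on 16 fragments in the control and 22 in the IFN-γ library, and the lowest backgrounds were 1.06 and 1.54. Intervals are exact binomial 95% intervals, and intervals and counts cover counting error only. Genes were those of GENCODE 44 and peaks overlapped by at least 1 bp. The text names all 9 genes, the gene of the nearest TSS where it was another one, and the 5 genes of the second list with the highest-ranking IFN-γ repeat peaks. Alternatives were a q-value under 0.01, lists of equal length, and other windows, overlaps, run definitions and depth scales; joining runs within 100 bp was added after seeing the data. Pileup solving, run finding and interval overlap were tested on simulated data, and the other steps were not. The pileups were simulated with the same formula that was then solved. Tools were matplotlib 3.10.9, pysam 0.24.0, pandas 2.3.3, scipy 1.17.1, numpy 2.4.6 and Python 3.11.15.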

Additional observations from a re-analysis of the deposited data

How the results depend on the processing

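Of the alternatives, 88 values stayed within 1.5 times the reported count or within its interval and 13 moved; none turned the direction of a called value, and the median ratio of pairs off repeats, which crossed 1, is given above. With 50 kb on either side in place of 100 kb the loci held 23 control and 29 IFN-γ peaks. Counted run by run, as planned, 26 control and 31 IFN-γ repeats of the loci were under a peak. After runs within 100 bp were joined the counts were 13 and 18. This alternative was chosen after seeing the data and is the one used for the tracts above. The share of genome runs under a peak was 23.4% and 44.5%, and it was 34.6% and 60.3% for at least 6 units, 11.6% and 24.1% with gaps of up to 4 bases, 19.4% and 37% with the summit within 100 bp of the run, and 19.3% and 38.9% after joining. With the depth set from shared promoter peaks, which raises every ratio, 7 repeat pairs in place of 4 had an interval above 1. No paired analysis was possible because neither condition was replicated. The low pileups limit single ratios, most of whose intervals held 1, and the repeat lengths are those of the reference genome.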
